A study of Mus musculus with 19 samples.

Results

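The cadherin 11-like genes are 10 of the 41388 Ensembl genes counted in these RNA-seq libraries, namely Gm21092 (ENSMUSG00000095403), Gm6483 (ENSMUSG00000087153), 2610005L07Rik (ENSMUSG00000071793), 6820431F20Rik (ENSMUSG00000071796), Gm21769 (ENSMUSG00000094614), AC152164.1 (ENSMUSG00000101635), Gm21811 (ENSMUSG00000096401), Gm26804 (ENSMUSG00000097263), Gm10557 (ENSMUSG00000073647) and Gm26853 (ENSMUSG00000097230). They were taken by Ensembl identifier. They had been picked out because their read counts were lower in E13.5 brain of Wiz MommeD30/+ embryos, so their genotype difference in E13.5 brain is given as a description, and the calls counted there are fixed by that choice.

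The libraries came from mice labelled FVB (FVB/NJ in the methods of the study), either Wiz+/+ or heterozygous for MommeD30, a mutation made with the chemical mutagen ENU in Wiz, which codes for a zinc finger protein that binds the histone methyltransferases G9a and GLP. Whole brains were taken at 13.5 days post coitum from embryos of heterozygous intercrosses (3 Wiz+/+ and 3 Wiz MommeD30/+ males, 2 and 2 females), and cerebellums from males at 56 days post partum (3 and 3). According to the methods of the study all groups carried a multicopy GFP transgene driven by a human α-globin promoter. The comparison of the genotypes asks which genes depend on the dose of Wiz.

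Cadherins are adhesion proteins that span the cell membrane and bind like cadherins on the next cell through repeated extracellular domains, with calcium. Inside the cell, classical cadherins hold catenins, which connect them to actin. Cadherin 11, the product of Cdh11, is a classical cadherin of mesenchymal cells and of the developing nervous system. A pseudogene is a copy of a gene that is not expected to make the full protein. An unprocessed pseudogene keeps introns, as after a duplication of genomic DNA, and a processed one lacks them, as after reverse transcription of an RNA.

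Of the 10 genes, 8 had an entry in GENCODE M21 (GRCm38, the sequence of mm10). Gm6483, Gm26853, Gm21811, 6820431F20Rik, Gm26804, 2610005L07Rik and Gm21092 lay in this order on chromosome 8, from position 19682449 to 20582771, a span of 900.3 kb. The outermost were Gm6483 at chr8:19682449-19697736 and Gm21092 at chr8:20567597-20582771, both on the plus strand. 2610005L07Rik at chr8:20385782-20424814 and 6820431F20Rik at chr8:20262613-20297432 were on the minus strand and were annotated as transcribed unprocessed pseudogenes. Gm21092, Gm6483 and Gm21811 (chr8:20136502-20151665) were annotated as unprocessed pseudogenes. Gm10557 was annotated as a processed pseudogene on chromosome 18. Gm26804 (chr8:20292477-20420781) and Gm26853 (chr8:19789798-19798548) were annotated as long intergenic noncoding RNAs. The identifiers of Gm21769 and AC152164.1 had no entry in GENCODE M21, so no position or sequence is given for them.

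**Figure D1:**
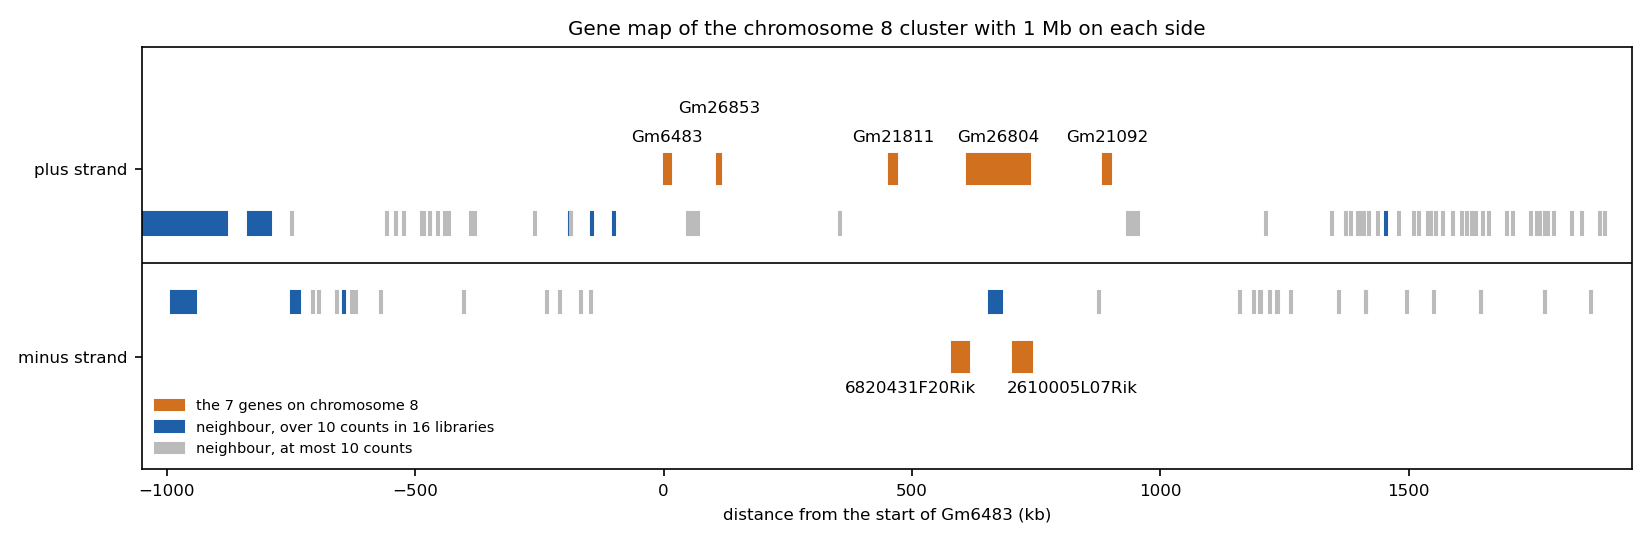
Map of the 7 genes on chromosome 8 (orange) by distance from the start of Gm6483 in kb, with the strand on the vertical axis and other annotated genes of the files within 1 Mb in blue (over 10 counts in the 16 libraries together) or grey (at most 10). The 7 genes lie in a stretch where nearly all other genes are grey.

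The transcripts of 6 genes (Gm21092, Gm6483, 2610005L07Rik, 6820431F20Rik, Gm21811 and Gm10557) aligned to the Cdh11 transcript, whereas those of Gm26804 and Gm26853 did not. The best alignments covered 589 to 990 bases between bases 864 and 2010 of the 5647-base Cdh11 transcript, with identities from 91.1% to 96.3%. Between each other the 6 copies were 92.5% to 99.7% identical over their best alignments (15 pairs, median 97.8%). Gm10557 was 99.7% identical to both 2610005L07Rik and 6820431F20Rik. The lowest pair was 6820431F20Rik with Gm6483, at 92.5% over 757 bases of which 40 were in gaps.

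Exon 5 of the 13 exons of this Cdh11 transcript shows how close the copies are. It is 120 bases long, lies at chr8:102670053-102670172 on the minus strand, and has a match of the same length as an exon of Gm6483 (chr8:19691521-19691640, plus strand), Gm21092 (chr8:20576669-20576788, plus strand), 2610005L07Rik (chr8:20401377-20401496, minus strand), 6820431F20Rik (chr8:20274123-20274242, minus strand) and Gm21811 (chr8:20145520-20145639, plus strand). The last 3 had the same sequence. The sequences are from GRCm38, 5′ to 3′ on the strand of the gene, with the bases that differ from Cdh11 in capitals.
Cdh11: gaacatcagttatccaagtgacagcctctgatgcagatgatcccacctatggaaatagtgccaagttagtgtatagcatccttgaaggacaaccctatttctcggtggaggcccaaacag
Gm6483: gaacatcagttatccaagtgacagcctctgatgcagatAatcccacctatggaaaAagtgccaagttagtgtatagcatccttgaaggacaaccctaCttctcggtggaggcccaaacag
2610005L07Rik, 6820431F20Rik and Gm21811: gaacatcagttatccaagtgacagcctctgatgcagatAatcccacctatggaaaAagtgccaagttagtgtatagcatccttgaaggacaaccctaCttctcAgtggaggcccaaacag
Gm21092: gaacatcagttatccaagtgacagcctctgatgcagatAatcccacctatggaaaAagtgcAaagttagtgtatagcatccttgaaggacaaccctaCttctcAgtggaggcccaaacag

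Counted from 1 at the 5′ end of the exon, with the base of Cdh11 first, G39A, T56A and T98C were in all 5 copies, G104A was in every one but Gm6483, and C62A was in Gm21092 alone. In the whole genome this exon aligned over at least 100 bases at 13 sites. They comprised Cdh11 itself, 6 of the genes described here, 5 other cadherin genes at 74.8% to 79.7% identity (Cdh6, Cdh7, Cdh9, Cdh18 and Cdh20), and Gm3365. Gm3365 is a further unprocessed pseudogene on chromosome 8, at 95.8% identity, and was not among the genes counted in these libraries.

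Reads of these libraries were 100 bases long, and many such windows of the copies are not unique. Of the exonic 100-base windows, 87.3% occurred once in the genome for Gm6483, against 43.7% for Gm10557, 36.1% for Gm26853, 26.3% for Gm21092, 22.1% for 2610005L07Rik, 18.3% for 6820431F20Rik, 12% for Gm21811 and 6.5% for Gm26804. For Cdh11 the share was 99.0%. Windows lay within single exons and were sought in the unspliced genome, so reads across exon junctions are not covered. The share for Gm10557, which lacks introns, may therefore overstate how far it differs from the spliced RNA of 2610005L07Rik and 6820431F20Rik. Reads from windows that occur more than once match several loci equally well, and how they were counted is not given in the sources used here, so the split of reads among the copies is uncertain for each value that follows. All sequences here are those of the reference genome GRCm38, and the sequence and number of the copies in FVB mice were not examined.

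**Figure D2:**
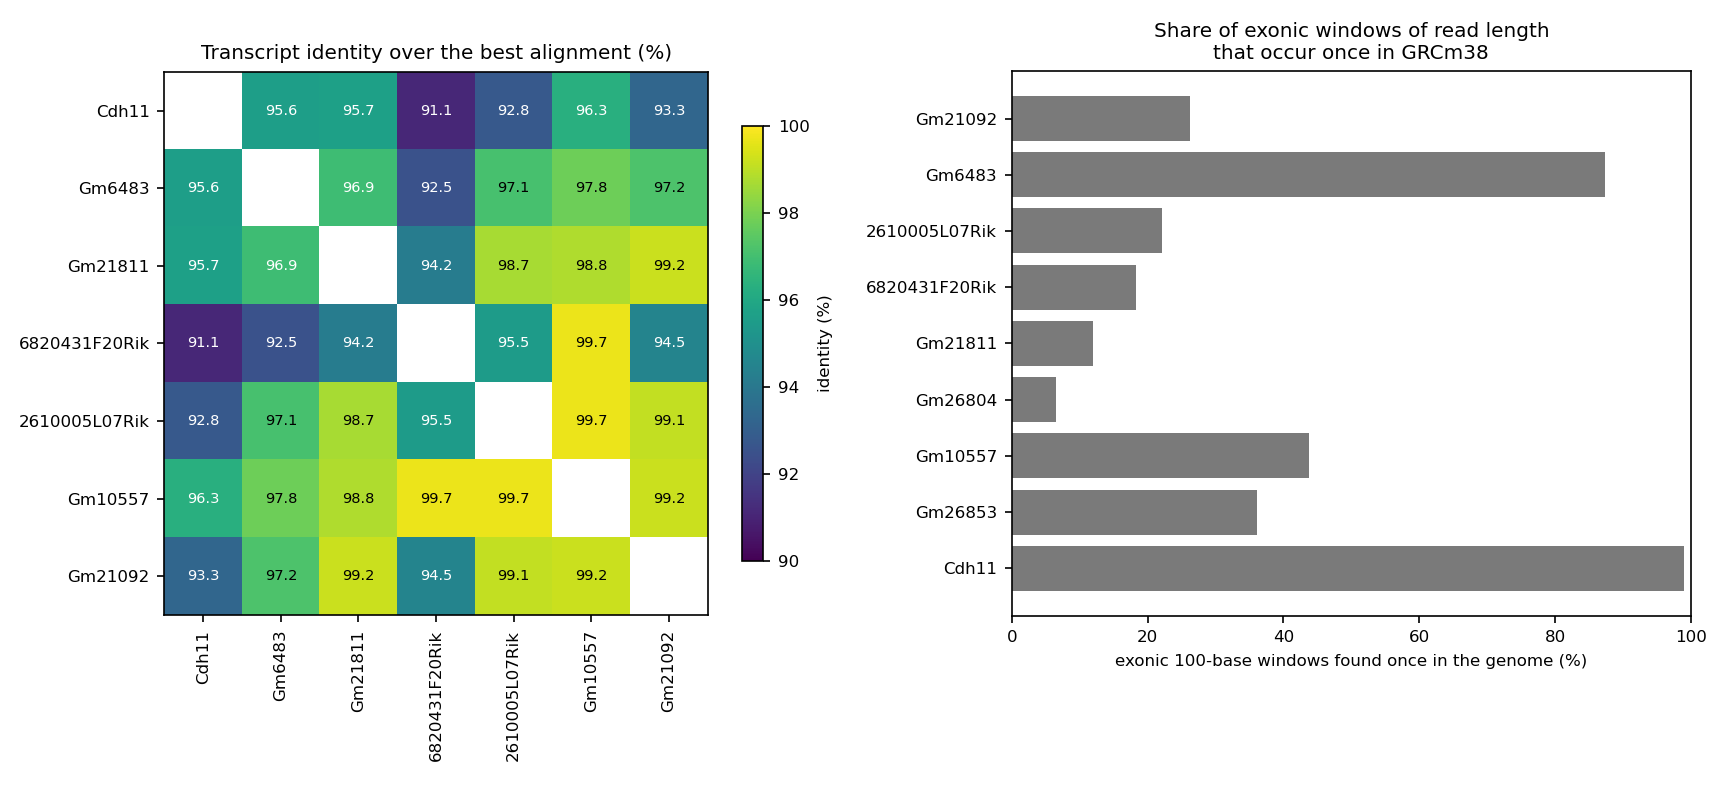
Left, percent identity of transcripts over the best alignment for Cdh11 and the 6 genes that align to it, with both axes listing genes. Right, percent of exonic 100-base windows that occur once in GRCm38 for 8 of the genes and Cdh11, where Gm6483 stands at 87.3% and Gm26804 at 6.5%.

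The annotated starts of the 7 genes on chromosome 8 fell into 3 sets by sequence. In windows from 250 bases before to 50 bases after the annotated start, Gm21092 and Gm21811 were 99.6% identical over 253 bases, and Gm6483 was 95% identical to Gm21092 over 298. 2610005L07Rik and 6820431F20Rik were 96.8% identical over 186 bases and were the ones with many CpG dinucleotides, 15 and 19, against 0 or 1 in the other 5 windows. The windows of Gm26804 and Gm26853 shared 221 bases at 100% identity in inverted orientation, so that each noncoding RNA started inside a copy of the same stretch, read in opposite directions. The first exon of Gm26804 lay inside an intron of 6820431F20Rik and its second exon inside an intron of 2610005L07Rik, on the other strand, and no exon base of the 7 genes was shared with an exon of another gene. The pair of CpG-rich windows is printed because they are the only ones with the CTCF-like letters described next.
2610005L07Rik, chr8:20424765-20425064, minus strand: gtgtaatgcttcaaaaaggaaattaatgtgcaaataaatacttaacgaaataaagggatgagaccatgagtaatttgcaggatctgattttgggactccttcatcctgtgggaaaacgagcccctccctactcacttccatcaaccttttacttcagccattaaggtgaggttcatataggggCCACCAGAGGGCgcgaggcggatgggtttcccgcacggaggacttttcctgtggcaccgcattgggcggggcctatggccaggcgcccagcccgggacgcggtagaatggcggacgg
6820431F20Rik, chr8:20297383-20297682, minus strand: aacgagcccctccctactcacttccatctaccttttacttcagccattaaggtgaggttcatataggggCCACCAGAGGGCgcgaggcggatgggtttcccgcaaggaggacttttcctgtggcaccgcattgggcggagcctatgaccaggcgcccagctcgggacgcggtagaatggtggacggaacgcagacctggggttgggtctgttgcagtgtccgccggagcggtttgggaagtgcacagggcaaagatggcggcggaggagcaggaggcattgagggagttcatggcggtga

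CTCF is a zinc finger protein that binds a long DNA motif and shapes chromatin loops. A strict spelling of its core, CC, any 3 bases, AGG, any 1 base, GGC on either strand, was in 0 of the 7 windows. It was in 3.43% of 32851 promoter windows of RefSeq genes of the same length. This spelling is narrow, so 0 of 7 does not show that the windows lack a CTCF motif. With 1 letter relaxed after the windows had been read, CC, any 3 bases, AG, any 2 bases, GGC matched in 2 of the 7 windows (in capitals above, first letter at -67 from the start in 2610005L07Rik and at -181 in 6820431F20Rik) and in 8.61% of the RefSeq windows. Both matches lie in the stretch that these 2 windows share. A match of letters is a description and does not show binding.

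The libraries held 16386029 to 50459755 counts each, of which the 10 genes took 0.0198% to 0.042%. Levels are given as CPM, a gene's counts in proportion to all counts of its library, with libraries scaled by the trimmed mean of M-values (TMM) over the 16 libraries. Wiz, the mutated gene, was at 172.6 to 189.9 CPM in Wiz+/+ brains and 111.7 to 121.7 in Wiz MommeD30/+ brains, without overlap. In cerebellum it was at 104.4 to 105.3 and 73.08 to 74.66, again without overlap. Markers of the tissues stood as labelled: the summed CPM of Nes, Sox2, Hes5, Dcx, Neurod6 and Eomes was 2243 to 2510 in E13.5 brain and 98.55 to 130.1 in cerebellum, and that of Gabra6, Pcp2, Cbln1, Cbln3, Calb1 and Car8 was 67.29 to 87.73 and 5722 to 6044. In such bulk tissue, fewer cells that use a gene and less RNA per cell cannot be told apart.

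Gm21092 had the most counts of the 10. In male E13.5 brain it was at 143.6, 143.3 and 139.0 CPM in Wiz+/+ and 79.27, 82.35 and 77.18 in Wiz MommeD30/+. In female E13.5 brain it was at 135.4 and 138.2 against 69.25 and 74.68. Every Wiz MommeD30/+ brain was below every Wiz+/+ brain, and replicates lay much closer to each other than the genotypes did. Per kb of exon, Gm21092 was at 148.7 CPM in Wiz+/+ male brain, above Gm6483 (78.47), 2610005L07Rik (16.95), Gm10557 (16.13), 6820431F20Rik (9.822), Cdh11 itself (8.561), Gm21811 (5.015), Gm26804 (4.36) and Gm26853 (3.026). The order rests on annotated exon lengths and on the assignment of reads among the copies.

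The other copies followed. Gm6483, the one with mostly unique windows, was at 69.32, 66.42 and 67.2 CPM in Wiz+/+ male brains and 40.79, 41.3 and 39.71 in Wiz MommeD30/+ male brains. 2610005L07Rik was at 72.2, 73.36 and 66.15 against 41.26, 42.27 and 36.17 in the same groups. 6820431F20Rik was at 50.22, 49.1 and 48.19 against 32.28, 30.53 and 30.0. These 4 genes together held 84.07% to 87.07% of the counts of the 10 genes in the E13.5 brains. The 6 remaining genes were below 20 CPM in every library, from Gm21769 (14.88 to 19.14 in Wiz+/+ male brain) down to Gm26804 (4.111 to 4.949).

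**Figure D3:**
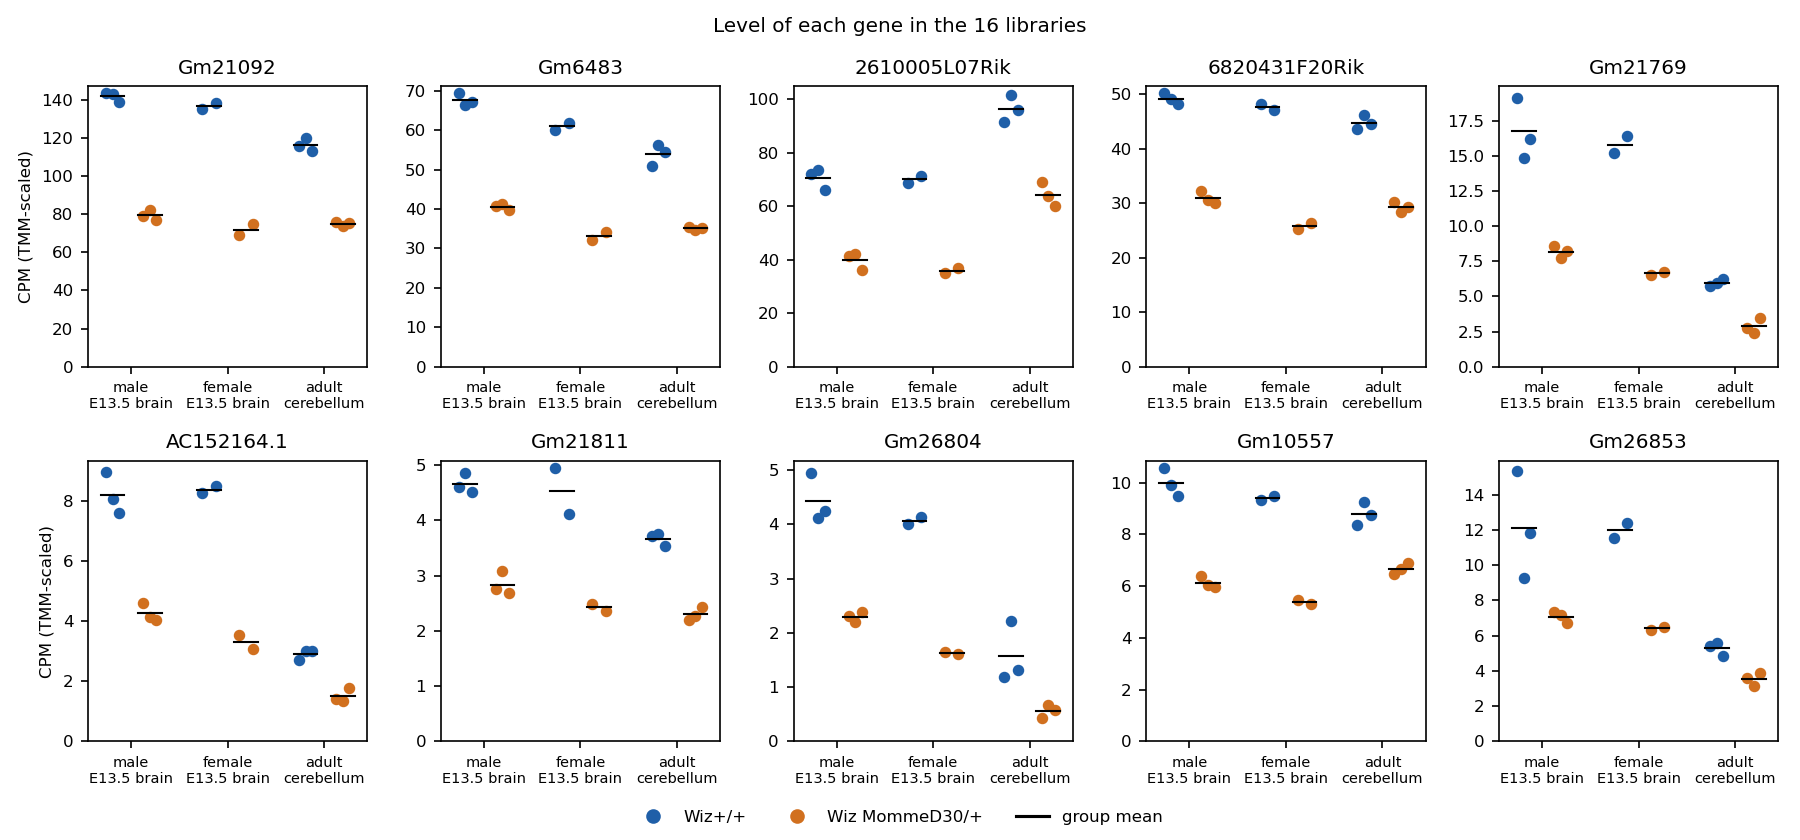
CPM of each of the 10 genes in each of the 16 libraries, with a linear axis from 0 in every panel, points for libraries (blue Wiz+/+, orange Wiz MommeD30/+) and lines for group means. In all 10 panels the orange points lie below the blue points of the same tissue and sex.

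In male E13.5 brain the fitted log2 fold change of Wiz MommeD30/+ over Wiz+/+ ranged from -1.05 to -0.67 with a median of -0.82, where the median over all genes was 0.0001. A gene counts as called here when its adjusted p does not exceed 0.05 and its fold lies below 0.7 or above 1.3. By this rule 10 of the 10 were called, all lower, where the background was 0.184% of 16848 genes (0.166% lower and 0.0178% higher). In female brain the log2 fold change ranged from -1.34 to -0.81 with a median of -0.91. There, 8 of the 10 were past the call (all but Gm21811 and Gm10557), where the background was 0.111% of 17152 genes. Since the genes were chosen on these contrasts, nothing is read from those counts, and the female count was 0 without either Wiz MommeD30/+ brain. The lowest fold changes were those of Gm21769 (-1.05 ± 0.0928, SE, in males and -1.25 ± 0.102 in females), AC152164.1 (-0.95 ± 0.0976 and -1.34 ± 0.134) and Gm26804 (-0.97 ± 0.116 and -1.32 ± 0.153). The 6 copies of Cdh11 sequence had values from -0.83 to -0.67 in male brain, and in female brain from -0.97 to -0.81.

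Nearest inside the limit of 0.7 in male brain was 6820431F20Rik, with a fold change of 0.63. Outside the list stood Gm15319 (chr8:20337664-20363210), annotated as protein coding and lying between 6820431F20Rik and 2610005L07Rik. It was at 0.4267 CPM in Wiz+/+ male brain, with a log2 fold change of -0.95 ± 0.354 (SE) and an edgeR adjusted p of 0.508. In female brain its log2 fold change was -1.25 ± 0.416 (edgeR adjusted p 0.773), and in cerebellum it was above 0, as given below. It was not called in any of these sets.

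All Wiz MommeD30/+ libraries were below all Wiz+/+ libraries for 10 of the 10 genes in each tissue and sex. The share of tested genes with that order was 6.17% in male brain, 18% in female brain, where 2 libraries stood against 2, and 12.4% in cerebellum. Summed over the 10 genes, the level fell from 385.5 ± 12.4 CPM (SD, n = 3) to 221.8 ± 7.59 (n = 3) in male brain, 57.5% of Wiz+/+. In female brain it was 369.5 ± 5.53 and 192.4 ± 7.07 (n = 2 and 2), or 52.1%, and in cerebellum 339.3 ± 12.9 and 221.2 ± 5.62 (n = 3 and 3), or 65.2%. The sum stood at a lower share of Wiz+/+ in the E13.5 brains than in cerebellum, and the difference between these shares was not tested because the brains were used to choose the genes.

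For 9 of the genes the rule did not use adult cerebellum, but its result was known when the genes were listed, so it is no independent support. Of these 9, 8 were lower under the call in edgeR's quasi-likelihood test with Benjamini-Hochberg adjustment over 15979 genes, where the background was 0.3% of genes called lower, 0.532% higher and 0.832% in either direction. The median log2 fold change over the 10 genes was -0.62, against -0.0031 over all genes. Gm21092 was at 115.7, 119.8 and 113.2 CPM in Wiz+/+ cerebellums and 76.07, 73.71 and 75.52 in Wiz MommeD30/+ cerebellums. This gave a log2 fold change of -0.63 ± 0.0345 (SE), with an edgeR adjusted p of 2.07e-08. Gm6483 fell by 0.61 ± 0.0458 on the log2 scale (edgeR adjusted p 7.01e-07), from 50.78, 56.18 and 54.51 CPM to 35.49, 34.68 and 35.15.

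2610005L07Rik, from 91.43, 101.6 and 96.03 to 68.95, 63.84 and 59.9 CPM, had a log2 fold change of -0.58 ± 0.0497. 6820431F20Rik, from 43.53, 46.24 and 44.48 to 30.22, 28.42 and 29.32 CPM, had one of -0.61 ± 0.0454. The 4 most counted copies thus lay within 0.05 of each other on the log2 scale, a range about the size of their standard errors. Gm21811, the rarest copy on chromosome 8, was at 3.718, 3.745 and 3.534 CPM against 2.194, 2.272 and 2.432 (-0.67 ± 0.131, edgeR adjusted p 0.00758).

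Gm21769, AC152164.1 and Gm26804 had larger log2 fold changes in cerebellum, as they had in brain. Gm21769 was at 5.739, 5.933 and 6.212 CPM in Wiz+/+ and 2.772, 2.384 and 3.469 in Wiz MommeD30/+ (-1.04 ± 0.13, edgeR adjusted p 0.000197). AC152164.1 was at 2.707, 3.004 and 2.999 against 1.424, 1.341 and 1.788 (-0.93 ± 0.162, adjusted p 0.00419 in edgeR). Gm26804 was at 1.191, 2.225 and 1.321 against 0.4235, 0.6704 and 0.5721 (-1.49 ± 0.287, adjusted p 0.00701 in edgeR), with 1 Wiz+/+ cerebellum well above the other two. Counts of Gm26804 were the lowest of the 10 genes there, and its fold change is the least precise. Its exons lie in introns of 6820431F20Rik and 2610005L07Rik on the other strand. As the strand setting of the counting is not known here, reads from those introns cannot be told apart from its own.

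Gm10557, the processed copy, changed least in cerebellum. Its levels were 8.374, 9.233 and 8.747 CPM in Wiz+/+ and 6.467, 6.667 and 6.901 in Wiz MommeD30/+. It passed the adjusted p (0.0145, edgeR) but not the fold limit, with a log2 fold change of -0.39 ± 0.0865. Gm26853 had been added with its cerebellum values known and is described only: it was at 5.414, 5.599 and 4.855 CPM against 3.619, 3.166 and 3.862, a log2 fold change of -0.57 ± 0.118. Without the second Wiz MommeD30/+ cerebellum its log2 fold change was -0.49, inside the fold limit.

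**Figure D4:**
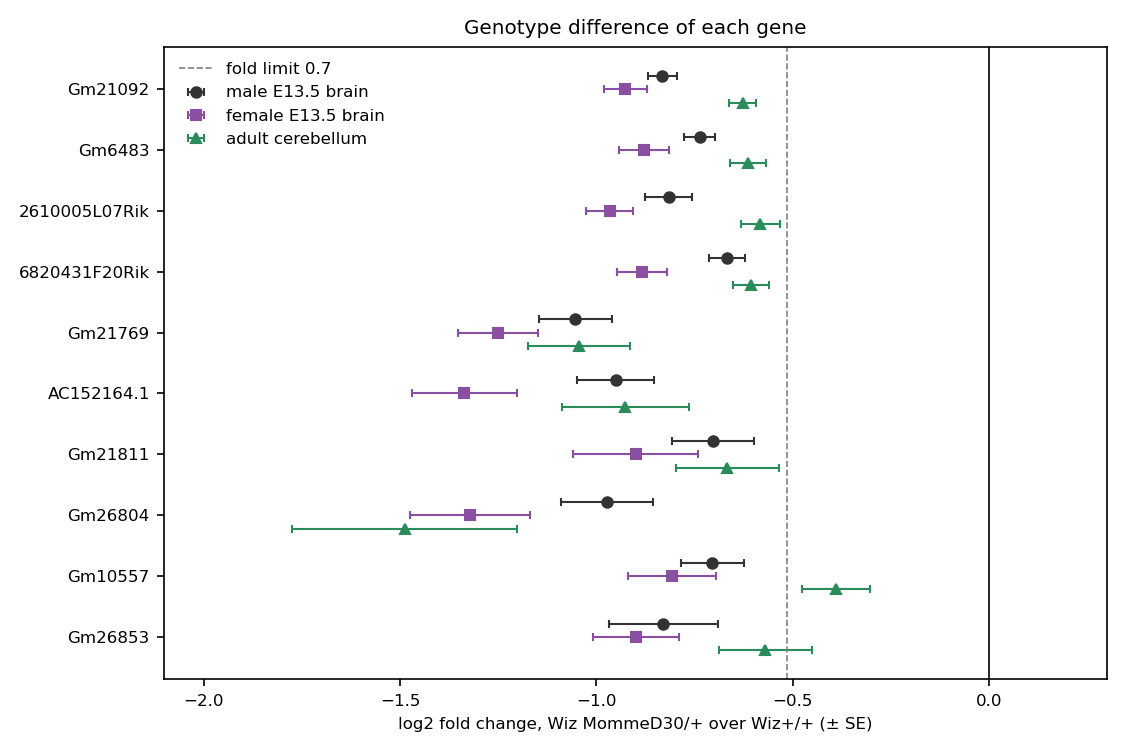
Log2 fold change of Wiz MommeD30/+ over Wiz+/+ with its SE for each of the 10 genes in male E13.5 brain (circles), female E13.5 brain (squares) and adult cerebellum (triangles). All points are below 0, and the triangle of Gm10557 is the one right of the dashed fold limit of 0.7.

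Markers of blood and of embryonic brain moved with genotype in cerebellum. The summed embryonic brain markers were at 118.2 to 130.1 CPM in Wiz+/+ cerebellums and 98.55 to 112.6 in Wiz MommeD30/+ cerebellums, lower without overlap as the 10 genes were, with none of the 6 at 0, and overlapped between genotypes in E13.5 brains of both sexes. The summed CPM of the blood markers Hba-a1, Hba-a2, Hbb-bs, Hbb-bt and Alas2 was 160 to 249.1 in Wiz+/+ cerebellums and 290.5 to 528 in Wiz MommeD30/+ cerebellums, with none of the 5 at 0. In E13.5 brain the blood sum overlapped between genotypes in males (244.7 to 281.1 and 242.7 to 315.5) and was lower in the Wiz MommeD30/+ females (294.3 to 333.5 against 357.9 to 420.4). The 10 genes were lower in Wiz MommeD30/+ in each of these sets, and the part of blood or of embryonic brain markers in the cerebellum values was not tested. Summed choroid plexus markers (Ttr, Kl and Folr1) overlapped between genotypes in all 3 sets, with the widest range in Wiz MommeD30/+ cerebellum, 1007 to 2166. Endothelial, microglial and oligodendrocyte sums overlapped between genotypes in cerebellum and in male brain, and the endothelial and microglial sums were lower in Wiz MommeD30/+ than in Wiz+/+ female brains (94.52 to 108 against 110.3 to 112.7 and 26.45 to 28.38 against 29.16 to 30.13).

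Within a group, the log2 ratio to Gm21092 varied no more than counting alone would give for 5 of the 9 genes and more for the other 4. The spread of log2 CPM between replicates, pooled over the 6 groups (10 degrees of freedom), was 0.041 for Gm21092 and 0.046 for Gm6483, and the spread of their log2 ratio was 0.036, below the 0.045 that counting alone would give. For 6820431F20Rik the ratio to Gm21092 had a spread of 0.040, against 0.049 from counting. 2610005L07Rik varied more, with 0.068 for its ratio and 0.041 from counting. So did Gm21769 with 0.155 and 0.107, Gm26804 with 0.264 and 0.222, and Gm26853 with 0.177 and 0.107. Gm26853 varied most among the Wiz+/+ male brains, at 15.32, 9.265 and 11.82 CPM. These spreads are estimates on 10 degrees of freedom, and their differences from counting were not tested. Counting error here treats reads as independent and as assigned to the right copy.

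Between genotypes the ratios to Gm21092 differed without overlap for 3 of the 9 genes among males, 6 among females and 3 in cerebellum. The share of all genes with such a difference was not computed, so these counts are no result about the genes. In males the genes without overlap were Gm6483 (0.099), 6820431F20Rik (0.166) and Gm21811 (0.118), with higher ratios in Wiz MommeD30/+. In females they included AC152164.1 (-0.411), Gm6483 (0.047) and 2610005L07Rik (-0.039). Relative to Gm21092, the log2 ratio of Gm21769 differed between the means of Wiz MommeD30/+ and Wiz+/+ by -0.189 in males, -0.321 in females and -0.434 in cerebellum, and the genotypes overlapped in male brain only. The ratio of Gm26804 differed by -0.108, -0.390 and -0.815 in the same order, again with overlap in male brain only. Gm10557 went the other way, with differences of 0.134, 0.120 and 0.236 and overlap in male brain only. These differences are descriptions, as they rest on the contrasts that chose the genes or, in cerebellum, on the values given above.

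The choice of genes did not use the difference between tissues, but it did use the Wiz+/+ brain libraries of this comparison. Between the tissues the genes fell into separate sets. In Wiz+/+ males, Gm21769, AC152164.1, Gm26804 and Gm26853 were lower in cerebellum than in E13.5 brain, with log2 fold changes of -1.52 ± 0.103, -1.51 ± 0.113, -1.52 ± 0.189 and -1.26 ± 0.151 (SE) and edgeR adjusted p of 1.6e-09, 5.44e-09, 2.1e-06 and 1.49e-06. Gm21769 went from 14.88 to 19.14 CPM in brain to 5.739 to 6.212 in cerebellum, about a 0.35 fold level. 2610005L07Rik was higher in cerebellum, by 0.45 ± 0.0501 on the log2 scale (edgeR adjusted p 5.81e-07), from 66.15 to 73.36 CPM in brain to 91.43 to 101.6. In all, 5 of the 10 genes were past the call, where the background was 69.3% of 16840 genes, 32.9% lower and 36.4% higher.

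The other 5 copies of Cdh11 sequence were lower in cerebellum without passing the fold limit. Their log2 fold changes were -0.14 for 6820431F20Rik, -0.19 for Gm10557, -0.29 for Gm21092, -0.33 for Gm6483 and -0.34 for Gm21811, with edgeR adjusted p between 4.44e-06 and 0.0423. With total counts alone in place of TMM, which shifted the median of all genes to -0.226, the log2 fold change of 2610005L07Rik was 0.24, inside the fold limit, and those of Gm6483 and Gm21811 were -0.54 and -0.55, past it. 2610005L07Rik and 6820431F20Rik, which shared 96.8% of the compared bases at their starts, therefore differed in the direction of their tissue difference under each of the scalings tried. Cdh11 itself was lower in cerebellum, at 25.06 to 26.1 CPM against 69.77 to 81.06 (log2 fold change -1.58 ± 0.06, edgeR adjusted p 1.13e-12). Age, tissue and library set cannot be told apart in this comparison, which uses the same Wiz+/+ libraries as the comparisons of genotypes.

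Set against Gm21092 in the same library, which needs no scaling, the log2 ratio of 2610005L07Rik was -0.992 ± 0.046 (SD) in 5 Wiz+/+ brains of both sexes and -0.272 ± 0.059 in 3 Wiz+/+ cerebellums. That of Gm6483 was -1.11 ± 0.059 and -1.11 ± 0.069, a difference of -0.003. Of the 9 ratios, 6 did not overlap between the tissues, where the same was true of 83.1% of 16839 genes set against Gm21092, so the count is no result about these genes. The 6 were 2610005L07Rik, 6820431F20Rik, Gm21769, AC152164.1, Gm26804 and Gm26853. Each of these had p = 0.0357 in a two-sided exact permutation test, the smallest that 5 against 3 libraries can give, and 0.0536 after Benjamini-Hochberg adjustment over the 9, which misses 0.05. The ratio of Gm10557 differed by 0.117 with exact permutation p = 0.0714, and that of Gm21811 by -0.058 with exact permutation p = 0.429.

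**Figure D5:**
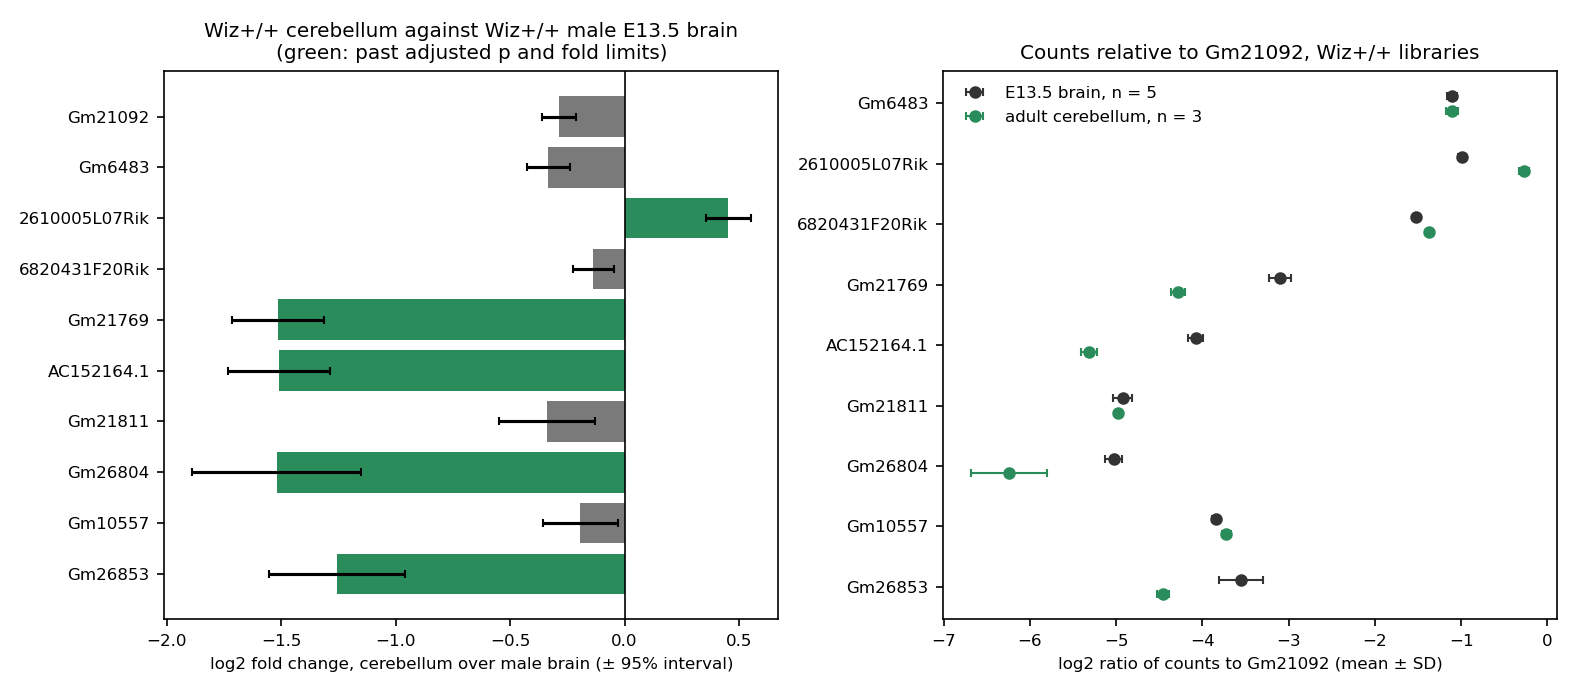
Left, log2 fold change of Wiz+/+ cerebellum over Wiz+/+ male E13.5 brain with its 95% interval for each of the 10 genes, green where past both limits. Right, log2 ratio of counts to Gm21092 (mean ± SD) in 5 Wiz+/+ E13.5 brains and 3 Wiz+/+ cerebellums, where the points of Gm6483 and Gm21811 nearly coincide and Gm21769, AC152164.1, Gm26804 and Gm26853 stand apart.

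Between the sexes the genes differed little. In the 10 E13.5 brains, with genotype in the model, the log2 fold change of females over males was between -0.29 and -0.08 with a median of -0.14, against 0.0028 over all genes. In the quasi-likelihood test of edgeR 0 of the 10 passed the call, where the background was 1.46% of 17620 genes (0.829% lower and 0.636% higher in females), and 0 passed it in DESeq2. At an unadjusted p under 0.05 in edgeR stood 6 of the 10, and 28% of all genes tested. Gm6483 (-0.22 ± 0.0363, edgeR adjusted p 0.00526) and 6820431F20Rik (-0.15 ± 0.0445, adjusted p 0.0438 in edgeR) passed the adjusted p alone, and the 95% interval of Gm21092 was -0.16 to -0.036. In Wiz+/+ brains alone the median was -0.056 and no gene passed the adjusted p.

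Cdh11, the coding gene on the same chromosome, did not share the genotype difference. It was at 81.06, 69.77 and 77.83 CPM in Wiz+/+ male brains and 77.89, 78.19 and 75.74 in Wiz MommeD30/+ male brains, and the groups overlapped. For males, females and cerebellum in turn its log2 fold change was 0.012 ± 0.05, -0.114 ± 0.096 and 0.038 ± 0.047, with edgeR adjusted p of 0.969, 0.892 and 0.708. Of the 20 classical and related cadherin genes listed, the fits for males, females and cerebellum tested 18, 19 and 19, and 0, 0 and 1 passed the call in edgeR, with 2, 4 and 3 at an unadjusted p under 0.05 and 0, 0 and 0 called by DESeq2. The one called by edgeR was Cdh6, a type II cadherin, with a log2 fold change of -0.92 ± 0.228 in cerebellum (edgeR adjusted p 0.0265), where it was at 2.135 ± 0.656 CPM in Wiz+/+ and 1.124 ± 0.191 in Wiz MommeD30/+ (SD, n = 3 and 3). The median log2 fold change of the list was -0.029, -0.159 and 0.030, beside medians over all genes of 0.0001, 0.0002 and -0.0031. Of all genes tested in males, females and cerebellum, 0.184%, 0.111% and 0.832% passed the call in edgeR. An unadjusted p under 0.05 in edgeR was reached by 8.45%, 6.4% and 19.9% of all genes.

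Of the 7 catenin genes, which code for the partners of cadherins inside the cell, 7 were tested and 0 passed the call of edgeR in each genotype comparison, 0 had an unadjusted p under 0.05 and 0 were called by DESeq2, with medians of -0.018, -0.051 and 0.027. The shares over all genes are those given with the cadherin list. Between tissues, 9 of 19 cadherin genes tested were lower and 7 higher in Wiz+/+ cerebellum than in Wiz+/+ male brain, beside 32.9% and 36.4% of all genes. Examples were Cdh2, N-cadherin, at -1.87 ± 0.036, Cdh24 at -3.14 ± 0.086 and Cdh15, M-cadherin, at 7.82 ± 0.137 on the log2 scale.

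The genes around the cluster were mostly without counts. Within 1 Mb of the span, 90 other annotated genes were in the files, of which 69 had 0 counts in all 16 libraries and 80 had at most 10 in total. They included 45 defensin genes and defensin pseudogenes, and 42 of these had 0 counts. Defensins are antimicrobial peptides of epithelia. Inside the span, 4 other genes were in the files, and Gm15319 was the one tested. Of the 8 neighbours tested in a comparison, 0 passed the call of edgeR or of DESeq2 between genotypes in any of the 3 sets, and 1 in each set had an unadjusted p under 0.05. Such a p was reached by 8.45%, 6.4% and 19.9% of all genes in male brain, female brain and cerebellum. In both brain sets that neighbour was Gm15319, the one inside the span. Its log2 fold changes there were -0.95 ± 0.354 in males and -1.25 ± 0.416 in females. In cerebellum it was Agpat5. Agpat5, an acyltransferase of phospholipid synthesis and the most counted of the 8, had log2 fold changes of -0.021 ± 0.042, 0.029 ± 0.057 and 0.084 ± 0.03 in the same order of sets. Gm15319 had a log2 fold change of 0.59 ± 0.346 in cerebellum (edgeR adjusted p 0.37).

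With the means of the 3 sets of libraries removed (male brain, female brain and cerebellum), the genes whose log2 CPM over the 16 libraries was most like the mean of the 10 were Rps4l (Pearson r 0.974), Wiz itself (0.972), Pcdhb10 (0.953), Pcdhb14 (0.948) and Samd11 (0.942), of 16927 genes compared. Rps4l is a ribosomal protein gene similar to Rps4x, and Pcdhb10 and Pcdhb14 are members of the β cluster of protocadherins. The libraries of each set divide by genotype, so r mostly reads the difference between the genotypes and is given as a description. Cdh11 had an r of 0.137 and ranked 6539.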

How the data were processed

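For each of 16 RNA-seq libraries the authors deposited a table of read counts by Ensembl gene, without normalization. Per the study's methods, single-end reads were aligned to mm10 using TopHat 2.0.11 and counted with HTSeq 0.6.1. The counting mode, strand setting and treatment of reads with several matches are not given in the sources used here. The 3 ChIP-seq libraries were not analysed here. Replicates are separate samples by their labels.

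Counts were tested with edgeR 4.0.16 (quasi-likelihood, TMM, filterByExpr with a minimum count of 10, Benjamini-Hochberg over all genes tested). Sequences came from GRCm38 with GENCODE M21 and were compared with blastn 2.17.0, and 13 of 13 spliced transcripts were identical to the genome. A count of 0.5 was added before ratios, and a prior count of 2 for log2 CPM. The fits were tested on simulated data. Total counts per library set the counting error, and some of the 10 genes varied between replicates by more than that. Errors cover these samples only.

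The 10 genes, the cadherin, catenin and marker lists and the tests were chosen with earlier results of these data known, the cerebellum result included, which is therefore no independent support. Named genes were the 10 in every comparison, Wiz, Cdh11, the lists, tested neighbours within 1 Mb and the 5 genes most alike. The relaxed CTCF letters were chosen after seeing the windows. Alternatives were DESeq2 1.42.0, other scalings, filters and fold limits, a replicate block and leaving out each library.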

Additional observations from a re-analysis of the deposited data

How the results depend on the processing

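The median log2 fold change over the 10 genes kept its direction in each of the 5 comparisons under all alternatives tried. With total counts alone the tissue median was -0.55 in place of -0.34, as the median of all genes moved to -0.226. The sex median was -0.056 in Wiz+/+ brains alone, where AC152164.1 reversed to 0.022, and the value of Gm26853 ranged from -0.16 to 0.0005 as libraries were left out, reversed without the first Wiz+/+ male brain. For both reversals the cause was not tested. With no fold limit 10 of the 10 genes passed between tissues in place of 5, beside 86.5% of all genes in place of 69.3%. In cerebellum 10 passed in place of 9, beside 5.26% of all genes in place of 0.832%. As a mean of log2 CPM over the genes, which weights all 10 equally, the genotype difference was -1.01 in female brain and -0.74 in cerebellum, against -0.94 and -0.62 for the sum.

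Leaving out each library in turn gave medians of -0.86 to -0.75 in male brain, -0.95 to -0.91 in female brain, -0.64 to -0.59 in cerebellum, -0.35 to -0.31 between tissues and -0.18 to -0.11 between sexes. The summed difference ranged from -0.82 to -0.77, from -0.98 to -0.90 and from -0.64 to -0.59 in male brain, female brain and cerebellum, and 8 to 9 genes passed in cerebellum, 5 between tissues, 8 to 10 in male brain and 0 to 9 in female brain, with 0 without either Wiz MommeD30/+ female. DESeq2 called 7 of the 8 genes in cerebellum for which it gave an adjusted p, leaving Gm26804 and AC152164.1 without one. Libraries with the same replicate number did not deviate together (mean correlation of deviations -0.0788, -0.0518 and -0.0242 in male brain, female brain and cerebellum). With the number as a replicate block 9 genes passed in cerebellum, 5 between tissues, 9 in male brain and 3 in female brain. Over all genes, the count of calls moved most where low-count genes were kept (175 in place of 31 in male brain, 211 in place of 133 in cerebellum), with DESeq2 (32 in place of 19 in female brain, 75 in place of 133 in cerebellum), with no fold limit in cerebellum (840) and with the replicate block in female brain (3). Leaving out libraries gave 20 calls without the first Wiz+/+ and 117 without the third Wiz MommeD30/+ male brain, 70 without the third Wiz+/+ and 83 without the first Wiz MommeD30/+ cerebellum, and in female brain 261 and 40 without the first and second Wiz+/+ and 0 without either Wiz MommeD30/+ brain. Between sexes 258 genes were called, against 101 with DESeq2, 60 with the replicate block, 139 at an average count of at least 50, 1974 with no fold limit, 156 without the first Wiz+/+ male and 162 without the first Wiz+/+ female brain. Counting alone gives a spread between replicates of 0.221 on the log2 scale for Gm26804 and 0.025 for Gm21092, where 0.267 and 0.041 were measured.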
